A study of Mus musculus with 8 samples.

Results

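Heat shock and chaperone genes were followed in the RNA of CD11b+ cells of the mouse brain. The 10 genes were taken by name, with earlier results of these data known. They were *Hspa1a*, *Hspa1b*, *Hsph1*, *Dnajb1*, *Hsp90aa1*, *Hspa8*, *Hspb1*, *Hspe1*, *Hspd1* and *Bag3*, of 20308 genes in the count table. All 10 passed the filter on low counts, as did 13407 genes in all. The study asked how an excess of CSF1, a growth factor that microglia depend on, changes these cells. It had 4 CSF1 OE mice and 4 control mice, all of postnatal day 14 or 15 and all F1 offspring of C57Bl/6 and CD1 parents. CSF1 OE mice carried a transgene for secreted CSF1 that was driven through the TRE/tTA system in part of the GFAP+ cells, so that the cells measured here were exposed to the product and were not the cells chosen to make it. The labels call the other mice controls for the overexpression and do not say which alleles they carried. Cells were pulled down from the right hemisphere of each perfused mouse with magnetic beads against CD11b, a surface protein of microglia and other myeloid cells, after removal of myelin with Percoll, and gave 1 library per mouse. Mice are named by genotype and animal number.

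Heat shock proteins bind unfolded or newly made proteins and help them to fold or to be degraded. Several of their genes are held at a low level in a resting cell and are switched on within minutes to hours by heat, toxins and other stress, when heat shock factor 1 forms trimers and binds heat shock elements in their promoters. Other genes of the group are expressed at a high level at all times and rise less. A heat shock element is a row of inverted units with the core letters GAA.

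The promoter of *Hspa1a* is shown because this gene and its neighbour *Hspa1b* spread most between mice, as described further on, and the stretches of *Hspb1*, *Hspe1* and *Hsph1* because they show other arrangements of the same unit. The sequences are from RefSeq on GRCm38.p6 and are written 5′ to 3′ on the strand of the gene. Capitals mark 2 inverted units, GAANNTTC or TTCNNGAA, or a run of such units that overlap. The first stretch is chr17:34972157-34972406 on the minus strand and ends at the base before the RefSeq start of *Hspa1a*. The stretch of *Hspb1* is chr5:135887789-135887838 on the plus strand. That of *Hspe1* is chr1:55088053-55088082 on the plus strand and that of *Hsph1* is chr5:149636351-149636380 on the minus strand.
Hspa1a: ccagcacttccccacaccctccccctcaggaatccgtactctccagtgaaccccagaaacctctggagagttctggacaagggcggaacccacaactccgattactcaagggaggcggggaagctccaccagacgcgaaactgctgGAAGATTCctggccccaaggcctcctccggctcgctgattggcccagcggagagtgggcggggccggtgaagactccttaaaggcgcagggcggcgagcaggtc
Hspb1: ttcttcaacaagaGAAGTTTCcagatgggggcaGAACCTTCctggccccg
Hspe1: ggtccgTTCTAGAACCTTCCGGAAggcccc
Hsph1: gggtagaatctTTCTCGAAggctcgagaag

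In *Hspa1a* and *Hspa1b* the capitals lie at bases -104 to -97 from the start. The 250 bases before the 2 starts differ at 3 positions, counted from 1 at the first base printed, with the base of *Hspa1a* first: C44T, T47C and T249G. None of them falls in the capitals. *Hspb1* has 2 separate pairs of units, at -117 to -110 and at -97 to -90. In *Hspe1* overlapping units run from -89 to -72. *Hspe1* and *Hspd1* lie head to head, and the same letters stand at -144 to -127 in a window of *Hspd1*. *Hsph1* has 2 start sites in RefSeq, with units at -54 to -47 from 1 and at -33 to -26 from the other, which is the start the printed stretch is counted from.

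Windows from 250 bases before to 50 bases after a start were searched on both strands for 2 inverted units and for 3 alternating units, GAANNTTCNNGAA or TTCNNGAANNTTC, which contain the pairs. Of the 10 genes, 8 had a window. *Hsp90aa1* and *Hspa8* had none. Of the 8, 7 held 2 units and 6 held them before the start, whereas 17.0% of the 27025 genes with a window held 2 units and 14.5% held them before the start. *Bag3* held them only after its start, at bases 42 to 49, and the windows of *Dnajb1* held no such letters. The run of 3 units was found in *Hsph1*, *Hspe1* and *Hspd1* and in 0.662% of all genes. In *Hsph1* it lay after the start, at bases 15 to 27 from 1 start site and 36 to 48 from the other. *Hspe1* and *Hspd1* share the same run, and the promoters of *Hspa1a* and *Hspa1b* are nearly identical. The 8 genes are thus not separate observations to set against the shares of all genes. A match describes the letters and not a site that was shown to be bound, and no match says only that these letters are not in the window.

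**Figure D1:**
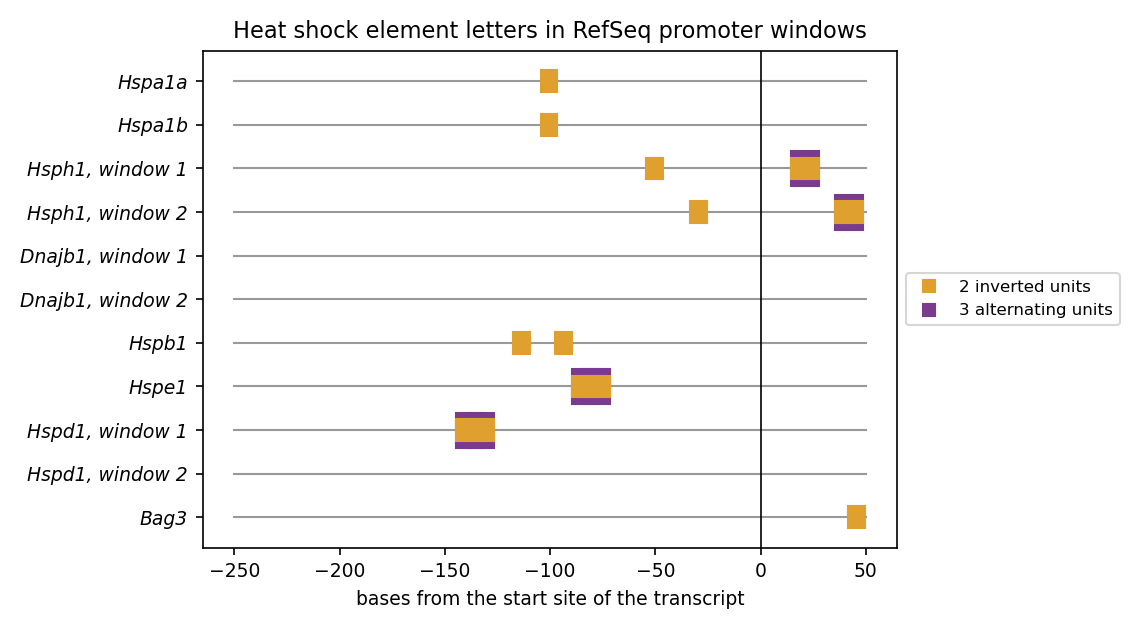
Positions of inverted heat shock units in the RefSeq promoter windows of the 8 genes that have one, with the distance from the start site of the transcript in bases on the x axis and 1 line per window. *Hspa1a* and *Hspa1b* carry 1 pair of units at the same distance, and *Hspb1* carries 2 pairs. *Hsph1*, *Hspe1* and *Hspd1* carry runs of 3 units, which lie after the start in *Hsph1*, and the windows of *Dnajb1* are empty.

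Libraries held between 12053280 and 15475488 counts, and between 15152 and 15889 genes had a count. Levels are given as CPM, counts scaled to a common library total, after TMM scaling, which evens out the composition of the libraries. A count of 0 would have allowed up to 0.194 to 0.249 CPM, the level of 3 counts before TMM scaling. This range covers counting error only. The lowest count of any of the 10 genes in a library was 43, for *Hspb1*. The sum of 12 microglia markers was 21165 to 40212 CPM and all 12 were detected. Markers of T and B cells summed to 0.164 to 1.42 CPM. RNA of other cells was present, with sums of 1609 to 6165 CPM for oligodendrocyte markers and 501 to 1628 CPM for endothelial markers. Border macrophage markers summed to 1252.5 to 2477 CPM. The first principal component, 49.8% of the variance, placed control 1934 and CSF1 OE 2019 farthest apart. *Csf1* averaged 282 ± 98.7 CPM among controls and 322 ± 107 CPM under CSF1 OE (SD, n = 4 each), a log2 fold change of 0.19 with an adjusted p of 0.796 in edgeR's quasi-likelihood test, which says little on a transgene that was aimed at other cells. Its receptor gene *Csf1r* was at 9722 ± 2240 and 10091 ± 1454 CPM (adjusted p = 0.914, edgeR).

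*Hspa1a* and *Hspa1b* encode nearly identical stress-inducible cytosolic HSP70 proteins and are single-exon genes on the minus strand of chromosome 17 (GRCm38, GENCODE M21, at 34969190 to 34972156 and 34956436 to 34959238). *Hspa1a* was at 2827, 1933, 155 and 1554 CPM in control mice 1827, 1872, 1874 and 1934, and at 33.8, 3610, 207 and 217 CPM in CSF1 OE mice 1931, 1932, 1936 and 2019. Control 1827, 1872 and 1934 and CSF1 OE 1932 were thus high, the other 4 mice were low, and the genotypes overlapped. The highest mouse, CSF1 OE 1932, and the lowest, CSF1 OE 1931, were of the same genotype and differed 107-fold. *Hspa1b* was at 3814, 1967, 144 and 1839 CPM in the control mice and at 29.98, 5317, 236 and 270 CPM in the CSF1 OE mice, in the same order of animal numbers, a 177-fold range. It followed the order of *Hspa1a* mouse by mouse.

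Reads of the 2 genes are in part the same sequence. Of all stretches of a read's length in the *Hspa1a* transcript, 42.2% also occur in *Hspa1b*, so RSEM had to divide such reads and each gene alone is uncertain. Their sum is not affected by the division between the 2. It was 6641, 3900, 299 and 3393 CPM in control mice 1827, 1872, 1874 and 1934 and 63.8, 8927, 444 and 487 CPM in CSF1 OE mice 1931, 1932, 1936 and 2019. Over the 8 mice it ranged 139.9-fold, and *Hspa1a* made up 40.4% to 53.0% of it in every mouse. As a share of all counts, the pair took 0.891% of the library in CSF1 OE 1932 and 0.00614% in CSF1 OE 1931.

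*Hsp90aa1*, the inducible cytosolic HSP90 (chr12, 110690605 to 110702728, minus strand), was at 2427, 2216, 534 and 2910 CPM in control mice 1827, 1872, 1874 and 1934. In mice 1931, 1932, 1936 and 2019, all CSF1 OE, it was at 477, 3527, 643 and 707 CPM. The same 4 mice were high as for the HSP70 pair, with no mouse between 707 and 2216 CPM. *Hsph1*, an HSP110 that exchanges the nucleotide of HSP70 (chr5, 149614287 to 149636376, minus strand), was at 449, 325, 56.7 and 502 CPM in the control mice and 41.5, 733, 59.2 and 67.0 CPM in the CSF1 OE mice. Again the groups overlapped, with control 1874 among the low mice and CSF1 OE 1932 above all others.

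*Hspb1*, the small heat shock protein HSP25 (chr5, 135887919 to 135889563, plus strand), had the lowest level of the 10 genes per kilobase of exon, 28.8 ± 15.2 CPM per kb in control and 15.9 ± 21.4 CPM per kb in CSF1 OE mice (SD, n = 4 each). By CPM it was at 38.9, 28.5, 8.09 and 43.2 CPM in control mice 1827, 1872, 1874 and 1934 and at 3.70, 49.3, 8.72 and 3.81 CPM in CSF1 OE mice 1931, 1932, 1936 and 2019. *Bag3*, a cochaperone of HSP70 that directs its clients to autophagy (chr7, 128523616 to 128546981, plus strand), was at 170, 110, 43.9 and 140 CPM in the control mice and at 39.8, 215, 46.1 and 43.5 CPM in the CSF1 OE mice. Both genes were high in the same 4 mice, and within the low set the mice lay close together for *Bag3* but not for *Hspb1*.

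The mitochondrial chaperonin is made of the products of *Hspd1* (HSP60, chr1, 55077835 to 55088243, minus strand) and *Hspe1* (HSP10, chr1, 55088132 to 55091307, plus strand). *Hspd1* was at 383, 300, 135 and 458 CPM in control mice 1827, 1872, 1874 and 1934 and at 177, 620, 198 and 175 CPM in CSF1 OE mice 1931, 1932, 1936 and 2019. *Hspe1* was at 97.1, 73.1, 38.3 and 95.9 CPM in the control mice and at 62.8, 149, 67.2 and 63.8 CPM in the CSF1 OE mice. The partners moved over a 4.59-fold and a 3.90-fold range. Their annotated ends overlap and the library kit does not mark strand, so reads from that overlap cannot be told apart. The step between the high and the low mice was small for *Hspe1*, where the 4th mouse exceeded the 5th by 1.09-fold.

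*Hspa8* encodes the constitutive HSC70 (chr9, 40800984 to 40810087, plus strand). It was at 4707, 4495, 2581 and 4354 CPM in control mice 1827, 1872, 1874 and 1934 and at 2194, 5326, 2194 and 2977 CPM in CSF1 OE mice 1931, 1932, 1936 and 2019, a 2.43-fold range. *Dnajb1*, the HSP40 that delivers substrates to HSP70 (chr8, 83608193 to 83612653, plus strand), was at 247, 228, 186 and 203 CPM in the control mice and at 132, 341, 105 and 187 CPM in the CSF1 OE mice. For *Dnajb1* the control mice lay close together, within 1.33-fold, while the CSF1 OE mice ranged 3.26-fold. Of such stretches of *Hspa8*, 58.5% also occur in other annotated genes, as do 41.3% of those of *Hsp90aa1*, 38.6% of *Hspb1*, 22.1% of *Hspd1* and 17.4% of *Hspe1*, so that these levels carry some uncertainty from the division of reads. No such stretch of *Hsph1*, *Dnajb1* or *Bag3* was found in another gene.

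**Figure D2:**
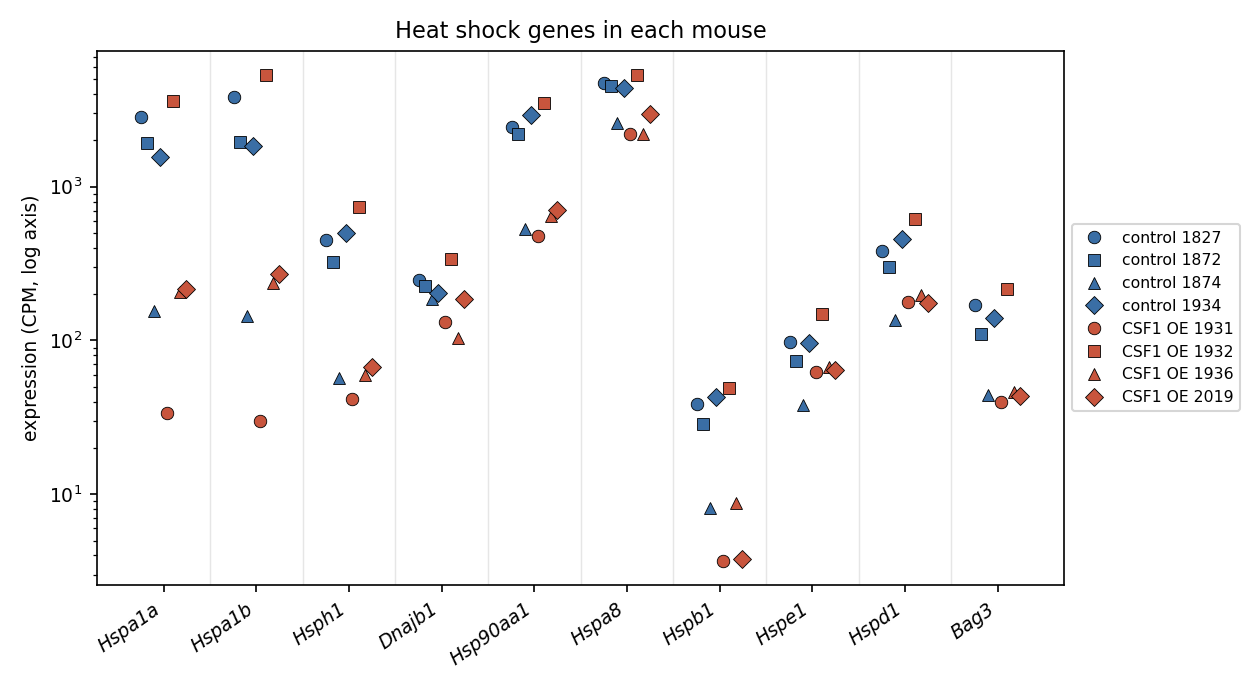
Expression of the 10 genes in each of the 8 mice, in CPM on a log axis, with blue symbols for control and red symbols for CSF1 OE mice and 1 symbol shape per mouse within a genotype. Control 1827, 1872 and 1934 and CSF1 OE 1932 are the 4 highest mice in all 10 genes, and the distance to the other 4 is widest for *Hspa1a* and *Hspa1b* and small for *Dnajb1* and *Hspe1*.

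The order of mice was thus alike across the genes. The 4 highest mice were control 1827, 1872 and 1934 and CSF1 OE 1932 in 10 of 10 genes, compared with 358 of 13407 genes tested, or 2.67%. This set of mice was taken from *Hspa1a*, which matches it by definition, and *Hspa1b* shares reads with *Hspa1a*. CSF1 OE 1932 was the highest mouse in all 10. The lowest was CSF1 OE 1931 in 6 genes, control 1874 in 2 and CSF1 OE 1936 in 2. Control 1827 took ranks 2 to 3, control 1872 ranks 3 to 4 and control 1934 ranks 2 to 4. The widest gap of a gene, on the log2 scale, fell between the 4th and the 5th mouse in 8 of the 10 genes, with *Dnajb1* and *Hspe1* as the exceptions. Across that gap the level changed 7.16-fold for *Hspa1a*, 6.82-fold for *Hspa1b*, 4.86-fold for *Hsph1*, 3.27-fold for *Hspb1*, 3.13-fold for *Hsp90aa1* and 2.38-fold for *Bag3*. It changed 1.51-fold for *Hspd1* and 1.46-fold for *Hspa8*. Since the mice fall into separate sets, a correlation over them mostly restates this step and was not tested.

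Per kilobase of exon, the genes of the group can be set against each other. *Hspa8* led in both genotypes, at 1685 ± 409 CPM per kb in control and 1325 ± 619 CPM per kb in CSF1 OE mice (SD, n = 4 each). In CSF1 OE 1932 *Hspa1a* and *Hspa1b* together came to 3114 CPM per kb against 2225 for *Hspa8*. In CSF1 OE 1931 they were at 22.1 CPM per kb against 917 for *Hspa8*. The inducible pair thus exceeded the constitutive gene in CSF1 OE 1932, as it did in control 1827, and was below it in the other 6 mice. All 10 genes together made up 1.99% of the library of CSF1 OE 1932 and 0.307% of that of CSF1 OE 1931.

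The spread between mice of a genotype was measured as the SD of log2 CPM. It was 2.62 for *Hspa1b*, 2.38 for *Hspa1a*, 1.69 for *Hsph1*, 1.45 for *Hspb1*, 1.22 for *Hsp90aa1* and 1.02 for *Bag3*. *Hspd1* was at 0.83, *Hspe1* at 0.62, *Dnajb1* at 0.54 and *Hspa8* at 0.51. The median of the 10 genes was 1.12, and that of all genes tested was 0.22. All 10 had an SD over 0.5, as did 18.8% of all genes. Among the 9306 genes with a geometric mean of at least 10 CPM, *Hspa1b* ranked 1, *Hspa1a* 2, *Hsph1* 4, *Hspb1* 6 and *Hsp90aa1* 18 by this SD. The list was named with earlier results of these data known, so the ranks describe the genes and were not tested.

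**Figure D3:**
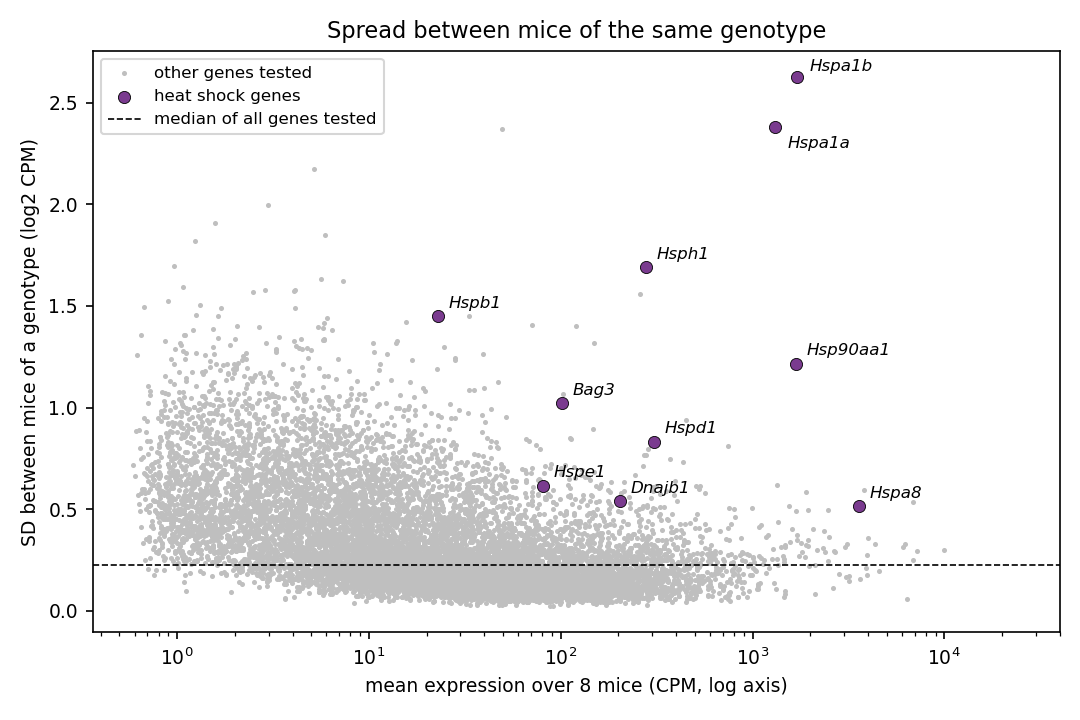
Spread of each gene tested between mice of the same genotype, as the SD of log2 CPM, against its mean expression over 8 mice in CPM on a log axis. Grey points are other genes, purple points are the 10 heat shock genes and the dashed line is the median of all genes, 0.22. *Hspa1b* and *Hspa1a* stand highest among abundant genes, and all 10 lie above the line.

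The comparison of genotypes asked whether CSF1 overexpression changed these genes. None of the 10 was called, where a call needs an adjusted p under 0.05 in edgeR's quasi-likelihood test and a fold change under 0.7 or over the inverse of it, the thresholds of the study's own analysis. Of all genes tested, 0.440% were called, 0.388% as higher and 0.0522% as lower in CSF1 OE mice. An unadjusted p under 0.05 was reached by 0 of the 10 in edgeR and by 16.5% of all genes. DESeq2 and limma also called 0 of the 10. The levels of the genotypes overlapped in all 10 genes, and in 10.3% of all genes they did not overlap.

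The estimates were wide. *Hspa1a* averaged 1617 ± 1111 CPM among controls and 1017 ± 1731 CPM under CSF1 OE (SD, n = 4 each). Its log2 fold change was -0.67, with a standard error of 1.27 and an adjusted p of 0.811 (edgeR). *Hspa1b* averaged 1941 ± 1500 and 1463 ± 2571 CPM. Its log2 fold change was -0.41, with a standard error of 1.37 and an adjusted p of 0.899. The mean of log2 CPM differed more, by -1.97 for *Hspa1a* and -1.90 for *Hspa1b*, a scale on which the single high CSF1 OE mouse weighs less. Both values lie within the spread between mice of 1 genotype.

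Of the other genes, *Hspb1* had the largest estimate, -0.85 on the log2 scale, with a standard error of 0.84 and an adjusted p of 0.642 (edgeR). Its levels were 29.7 ± 15.6 CPM among controls and 16.4 ± 22.1 CPM under CSF1 OE. *Hsp90aa1* was at 2022 ± 1034 and 1339 ± 1462 CPM, and its estimate was -0.60 ± 0.71 (log2, standard error). *Hsph1* was at 333 ± 199 and 225 ± 339 CPM, and *Bag3* at 116 ± 54.0 and 86.1 ± 86.0 CPM. *Hspa8* was estimated best, at 4034 ± 980 and 3173 ± 1482 CPM, with -0.35 on the log2 scale, a standard error of 0.32 and an adjusted p of 0.616. *Hspd1*, at 319 ± 139 and 293 ± 219 CPM, and *Dnajb1*, at 216 ± 26.9 and 191 ± 106 CPM, differed by -0.12 and -0.18 on the log2 scale. *Hspe1* alone was estimated as higher in CSF1 OE mice, at 85.8 ± 42.4 against 76.1 ± 27.5 CPM, a log2 fold change of 0.17 with a standard error of 0.36.

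In all, 9 of the 10 estimates were below 0, as were 55.2% of all genes, and their median was -0.42, against -0.034 for all genes. The standard errors ran from 0.32 to 1.37, whereas the median over all genes was 0.16. The adjusted p-values ran from 0.616 to 0.914. A difference of the size estimated was thus not detectable at this spread between mice, and the same values do not show that the genotypes were alike. Mice are separate animals, but no label says which were prepared together, so that mouse and cell preparation cannot be told apart in any of these values. In bulk RNA, fewer cells that express a gene and less of its RNA per cell cannot be told apart either.

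A single mouse decided the size of the estimates. Without CSF1 OE 1932 the median of the 10 log2 fold changes was -1.58, and *Hspa1a* was at -3.40, *Hspa1b* at -3.44, *Hsph1* at -2.57 and *Hspb1* at -2.44. In that fit 8 of the 10 had an unadjusted p under 0.05, the lowest adjusted p was 0.115 (edgeR) and 0 were called. Without control 1874, the control mouse with low levels, the median was -0.75. It moved toward 0 without CSF1 OE 1931, 1936 or 2019, at -0.20, -0.21 and -0.24, and without control 1827, at -0.22. The direction of *Hspe1* turned without CSF1 OE 1932 and without control 1874. CSF1 OE 1932 did not stand apart on the first principal component, where it lay between control 1934 and the other mice.

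**Figure D4:**
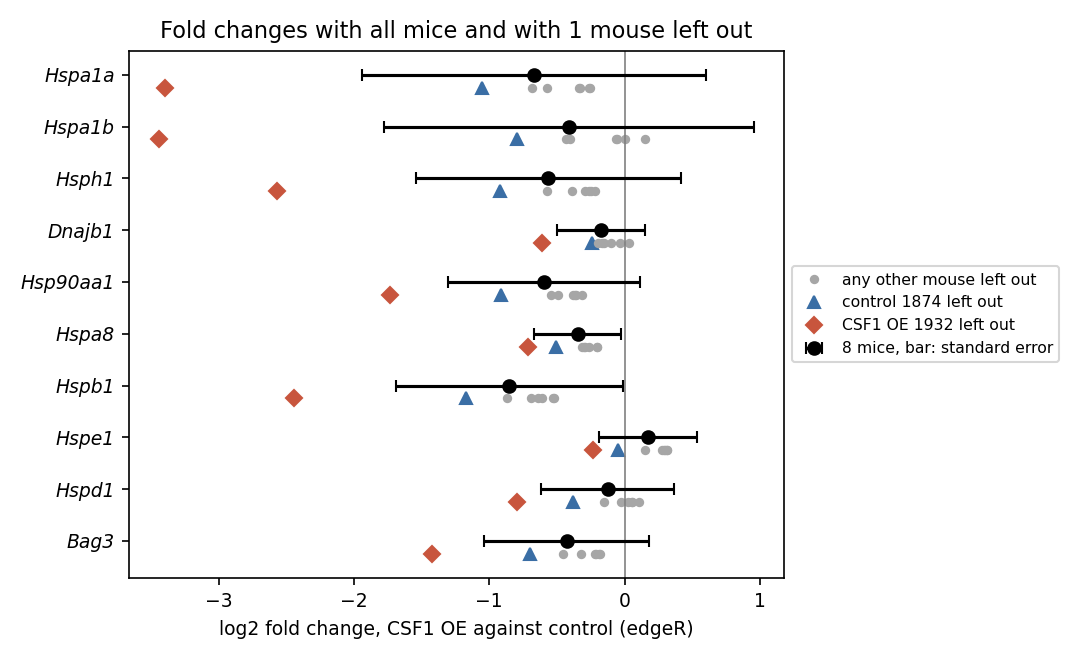
Log2 fold change of CSF1 OE against control for each of the 10 genes, from edgeR. Black points with bars are the estimates from 8 mice with their standard errors, red diamonds those without CSF1 OE 1932, blue triangles those without control 1874 and grey points those without any other single mouse. Most estimates lie below 0, and leaving out CSF1 OE 1932 moves every gene to lower values, most for *Hspa1b* and *Hspa1a*.

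Animal numbers were split into 1931 to 1936 and the rest, a split that overlaps with genotype. Numbers 1931 to 1936 hold 1 control mouse and 3 CSF1 OE mice. The other numbers, which lie on both sides of these, hold 3 control mice and 1 CSF1 OE mouse. No label says what the mice of either set share. Each set had 2 of the 4 high mice. The log2 ratio of mean CPM, CSF1 OE over control, was -0.28 for *Hspa1a* and 0.017 for *Hspa1b* in the first range and -2.92 and -2.87 in the other. In the first and the other set, the ratio was -0.91 and -1.29 for *Hsp90aa1*, -1.07 and -2.72 for *Hspb1*, and -0.43 and -0.40 for *Hspa8*. With a term for this split in the fit, all 10 estimates were below 0, with a median of -0.99 and a lowest adjusted p of 0.243 (edgeR). None of the 10 was called, while that fit called 1273 genes over the whole table.

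Most other chaperone genes spread less between mice. A list of 92 other chaperone genes had 84 that were tested. None was called in edgeR or limma, which called 0.440% and 0.338% of all genes, and 2 were called in DESeq2, which called 3.14% of all genes. An unadjusted p under 0.05 was reached by 24 in edgeR (16.5% of all genes). In CSF1 OE mice 50 were estimated as higher and 34 as lower (55.2% of all genes), and the median log2 fold change was 0.047. Their median SD between mice was 0.15, below the 0.22 of all genes. Summed, they ranged 1.27-fold between mice, where the 10 heat shock genes ranged 6.23-fold.

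A few of these 84 followed the HSP70 pair. Likeness was taken as Pearson's r between a gene's log2 CPM and the log2 of the summed *Hspa1a* and *Hspa1b*, over 8 mice and after removal of the genotype means. It exceeded 0.8 in 7 of the 84, compared with 2.69% of all genes. They were *Dnaja1* (0.91) and *Dnaja4* (0.90), which are J proteins, *Cacybp* (0.95) and *Hsp90ab1* (0.89), a client adaptor and the constitutive HSP90, *Hspa5* (0.92), the HSP70 of the endoplasmic reticulum, *Grpel2* (0.86) and *Hspa1l* (0.83). *Dnaja1* was at 472, 420, 276 and 569 CPM in control mice 1827, 1872, 1874 and 1934 and at 214, 691, 222 and 303 CPM in CSF1 OE mice 1931, 1932, 1936 and 2019, so that CSF1 OE 1932 was again the highest mouse. *Hsp90ab1* ranged only 1.85-fold and *Hspa5* 1.72-fold. Another 3 of the 84 went the other way, with an r under -0.8, as did 2.10% of all genes. These were the J proteins *Dnajc5* (-0.94) and *Dnaja2* (-0.86) and the HSP90 cochaperone *Fkbp5* (-0.81). By lists, the same 4 mice had the highest sums for HSP90 with its cochaperones, from 2346 to 3434 CPM, and for J proteins, from 1207 to 1674 CPM, but 1 gene carried each of these orders. Without *Hsp90ab1* the first sum ran from 979 to 1354.5 CPM and shared 1 of the 4 highest mice, and without *Dnaja1* the other ran from 909 to 1054 CPM and shared 0. The median r of the lists was 0.15 and -0.11.

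The genes of the factors that act on heat shock elements took other orders of mice, though that of *Hsf2* came near. *Hsf1*, the main factor of the heat shock response, averaged 32.9 ± 5.93 CPM among controls and 29.7 ± 3.95 CPM under CSF1 OE (adjusted p = 0.664, edgeR), ranged 1.57-fold between mice and had an r of -0.30. *Hsf2* was at 22.9 ± 6.20 and 22.0 ± 6.14 CPM with an r of 0.74. It was highest in control 1934 (31.9 CPM) and CSF1 OE 1932 (30.6 CPM), followed by CSF1 OE 1936 (22.4 CPM), and lowest in CSF1 OE 1931 (16.8 CPM). *Hsbp1*, which binds the factor, had the largest positive estimate of its list, a log2 fold change of 0.14.

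Cytosolic chaperonin and prefoldin genes, which fold actin and tubulin, had a small spread between mice. Of 15 listed, 13 were in the table and 12 were tested, and all 12 estimates were above 0, as were 44.8% of all genes, with a median of 0.26. Of these 9 had an unadjusted p under 0.05 (16.5% of all genes) and in 8 the genotypes did not overlap (10.3% of all genes), but edgeR called 0. *Cct2* had the largest estimate, 172 ± 9.05 CPM among controls and 227 ± 11.1 CPM under CSF1 OE, or 0.40 on the log2 scale, with an adjusted p of 0.056 (edgeR), and *Cct7* the smallest at 0.12. The list summed to 1134 to 1277 CPM among controls and 1407 to 1507 CPM under CSF1 OE. Its highest mouse was CSF1 OE 1931, where the HSP70 pair was lowest.

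In the other lists, too, edgeR called no gene, while DESeq2 called *Hspa12b* and *Cryab* as lower (adjusted p = 0.036 and 0.048). Among relatives of HSP70, *Hspa9*, the mitochondrial member, had the largest positive estimate at 0.35 and *Hspa12b* the largest negative one at -0.81. Among nucleotide exchange factors these were *Bag1* at 0.48 (adjusted p = 0.090, edgeR) and *Bag2* at -0.32. Among HSP90 cochaperones they were *Fkbp5* at 0.59 and *Chordc1* at -0.29, and among J proteins *Dnajb14* at 0.25 and *Dnajb5* at -0.38. Small heat shock proteins other than *Hspb1* ran from 0.018 for *Hspb6* to -0.68 for *Cryab*, the lens and glial crystallin. Mitochondrial proteases ran from 0.079 for *Lonp1* to -0.15 for *Clpx*, and chaperones of the endoplasmic reticulum from 0.26 for *Sdf2l1* to -0.67 for *Serpinh1*, which assists collagen. Markers of some other cells in the same libraries had lower estimates too, though edgeR called 0 of them. All 10 endothelial markers had estimates below 0 (median -0.68), as did 6 of 7 oligodendrocyte markers (median -0.47) and 55.2% of all genes. Border macrophage, neuron and red blood cell markers had medians of -0.47, -0.42 and -1.58. Medians were nearer 0 for astrocyte (-0.15), precursor (-0.094), mural (-0.082), and neutrophil and monocyte markers (-0.054). Of 12 microglia markers, 8 were above 0. The part of other cells in these estimates was not tested.

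Immediate early genes, which respond to a stimulus without new protein, and cold-inducible genes were set beside the 10 genes. The 14 immediate early genes, among them *Ier2* (0.38) and *Nr4a1* (-0.55), summed to 11168 to 18943 CPM, and 0 had an unadjusted p under 0.05 (edgeR). Their order of mice was another one, led by control 1872 and control 1874, and they shared 2 of the 4 highest mice with the heat shock genes. The cold-inducible genes *Rbm3* and *Cirbp* had log2 fold changes of 0.73 (adjusted p = 0.077) and 0.59 (adjusted p = 0.498, edgeR). Both had CSF1 OE 1932 as the highest mouse, and their sum also shared 2 of the 4.

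Marker lists of cell types, microglia among them, did not give the same order. Of 11 lists, 0 had the same 4 highest mice. Of all genes tested, only 2.67% had them, so 0 of 11 lists says little about these cells. Neurons and red blood cells shared 3 of the 4. Their median r with the HSP70 pair was 0.46 and 0.69, against 0.035 for all genes. In the other lists with genes tested, the median r ran from -0.40 for border macrophages to 0.24 for neutrophils and monocytes. The sum of 5 red blood cell genes was 251 to 936 CPM among controls and 38.5 to 434 CPM under CSF1 OE, and all 5 were detected. The sum of 7 neuron markers was 88.7 to 347 and 43.8 to 206 CPM, with all 7 detected. The part of these cells in the heat shock levels was not tested. Microglia, border macrophage, endothelial, mural, astrocyte, oligodendrocyte, precursor, and neutrophil and monocyte markers each shared 2 of the 4, and those of T and B cells, near 0 in all mice, shared 1.

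**Figure D5:**
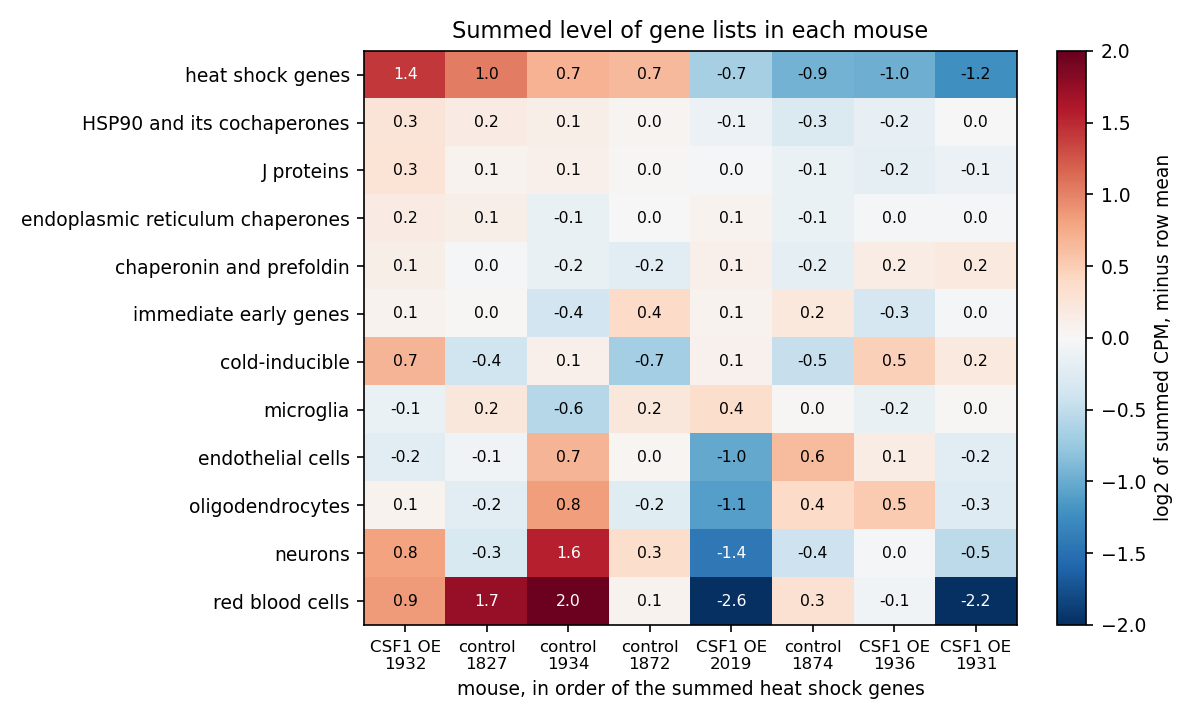
Summed expression of gene lists in each mouse, as log2 of the summed CPM minus the mean of the row, with mice ordered from the highest to the lowest sum of the 10 heat shock genes and the value printed in each cell, with colours that end at 2 and -2. The top row falls from left to right, the sums of HSP90 with its cochaperones and of J proteins have the same 4 highest mice, through *Hsp90ab1* and *Dnaja1*, and the lists of other cell types take other orders.

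Beyond chaperones, genes most like the HSP70 pair included *Fam178a* (r = 0.994), *Nmral1* (0.993), *Sox4* (0.973) and *Bhlhe41* (0.971), each over 8 mice. The range between mice was small for *Fam178a*, 1.47-fold, and for *Nmral1*, 1.51-fold. *Sox4*, a transcription factor, was at 259, 232, 146 and 237 CPM in control mice 1827, 1872, 1874 and 1934 and at 111, 411, 158 and 157 CPM in CSF1 OE mice 1931, 1932, 1936 and 2019. *Bhlhe41*, a transcriptional repressor, was at 170, 138, 58.7 and 132 CPM in the control mice and at 76.1, 240, 119 and 96.9 CPM in the CSF1 OE mice. In both, CSF1 OE 1932 was the highest mouse, and neither was called between genotypes, with adjusted p of 0.944 and 0.920 (edgeR). Of all genes tested, 94 had an r over 0.9 and 74 an r under -0.9, and 1 of the 50 most alike, *Cacybp*, was on the chaperone list.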

How the data were processed

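RNA of CD11b+ cells from 8 mice was measured, 1 library per mouse, and libraries were assigned to genotypes by their labels. The authors mapped paired reads with Bowtie 1.0.0 and made expected counts per gene with RSEM 1.2.7 on mm10 (tool versions and build from the submitters' processing notes), and deposited them without normalization. The strand setting and annotation are not given in the sources used here. A second deposited table holds a signal on the scale of counts, the authors' expected counts divided by 1 size factor per mouse. It served 1 alternative.

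Expected counts were rounded, filtered with filterByExpr, scaled with TMM and tested over all genes with edgeR 4.0.16 (glmQLFit, glmQLFTest, two-sided) in R 4.3.3, with Benjamini-Hochberg adjustment over 13407 genes. The authors' fold thresholds were kept, and their own test, EBSeq, was not run. edgeR's test gives no standard error, so those printed were derived as the absolute log2 fold change divided by the square root of the test's F statistic. Log2 CPM had a prior count of 2. No column was left unmapped. The common biological coefficient of variation was 0.228, and scripts were tested on simulated data. Gene positions came from GENCODE M21 (GRCm38). The windows searched for motifs came from RefSeq (GRCm38.p6). Shared stretches were counted on GENCODE transcripts at the read length.

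The genes and the lists were chosen with earlier results of these data known. Named beside the 10 genes were *Csf1* and *Csf1r*, the largest positive and negative estimate and any called gene of each list, and the 5 genes most like the summed *Hspa1a* and *Hspa1b*, of which 1 is not reported here. Others, such as the 7 chaperones with an r over 0.8, the 3 with an r under -0.8 and *Hsf2*, were named after their values were seen. Alternatives tried were the Wald test of DESeq2 1.42.0, upper-quartile scaling, a robust prior, 2 other filters (any count, or 10 or more counts in each mouse), limma 3.58.1 (trend method, log2 of the signal plus 1), a covariate for animal numbers 1931 to 1936 against the rest, each mouse left out, no fold threshold, *Hspa1a* and *Hspa1b* added into 1 row, and for the spread a prior count of 0.5.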

Additional observations from a re-analysis of the deposited data

Results flagged for a closer look

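In a group of 4 mice, a mouse was marked where its gap to the nearest other mouse, divided by the range of the group on the log2 CPM scale, exceeded Dixon's critical value of 0.829. Both genotypes were checked for the 10 genes, and 6 of 20 groups passed it. Chance marks about 1 in 20 such groups, and the 10 genes rise and fall together over mice, so the 6 are not independent. CSF1 OE 1932 lay above the other CSF1 OE mice for *Hsph1* (0.833), *Hspe1* (0.922), *Hspd1* (0.902) and *Bag3* (0.913). Control 1874 lay below the other control mice for *Hsp90aa1* (0.839) and *Hspa8* (0.870). *Hspa1a* and *Hspa1b*, whose absolute range was the widest, did not pass it in either genotype.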

How the results depend on the processing

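None of the 10 genes was called under any alternative run, and 148 of 158 refitted log2 fold changes kept their direction. The 10 that turned were those of *Hspe1*, at -0.0824 with a covariate for the range of animal numbers, -0.0462 without control 1874 and -0.235 without CSF1 OE 1932 (-0.235 to 0.313 over the mice left out), of *Hspa1b*, at 0.153 without control 1827 and 0.000515 without CSF1 OE 1931 (-3.44 to 0.153), of *Dnajb1*, at 0.0315 without CSF1 OE 1936 (-0.611 to 0.0315), and of *Hspd1*, at 0.108 without control 1934 and 0.0552, 0.0229 and 0.0567 without CSF1 OE 1931, 1936 and 2019 (-0.797 to 0.108). The cause was not tested. The number of the 10 estimated as higher was 0 with the range covariate and 0 to 3 with 1 mouse left out. Their median log2 fold change was -1.58 to -0.197 with 1 mouse left out, and -0.77 with limma's trend method, and the median SD between mice was 0.782 to 1.22, lowest without CSF1 OE 1932. The count of genes called over the whole table was 59, but 427 with DESeq2, 19 with upper-quartile factors, 1273 with the range covariate and 3 to 164 with 1 mouse left out, most without control 1827. Of the wider chaperone genes, DESeq2 called 2 (*Hspa12b* and *Cryab*, lower), the range covariate 5 (these, *Hspa12a*, *Hspb8* and *Serpinh1*, all lower), and the fits with 1 mouse left out 0 to 1 (*Bag1*, higher, without control 1827). No paired analysis was possible because no label says which mice share a litter or a preparation. With 4 mice a group, the spread between mice and not the depth limits these estimates.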
